A study of Mus musculus with 4 samples.

Results

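Besides AMPK, the tumor suppressor kinase LKB1 switches on a family of related protein kinases, and one branch of that family, the salt-inducible kinases, restrains the CRTC coactivators of CREB. The 10 genes described here are the kinases Sik1, Sik2, Sik3, Mark2, Mark3, Nuak2 and Snrk and the coactivators Crtc1, Crtc2 and Crtc3. They were taken by gene symbol from the LKB1-activated kinases other than AMPK and the CRTC factors, with earlier results of these data known, and are 10 of the 31055 features of the matrix. Other kinases of the family, such as Mark1, Mark4 and Nuak1, are not among them. Their levels are given in every cell type of the tumor and not only in the epithelium.

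The cells came from microdissected lung tumors of 4 female mice and were sorted as viable by exclusion of DAPI before droplet-based 3′ single-cell RNA-seq. Tumors had been started by intratracheal Lenti-Cre and had grown for 16 weeks, and every sample is labelled as treated with tamoxifen at 4 mg per dose for 2 weeks, although the series text also names a vehicle. All mice carried Lkb1XTR/XTR, in which Cre inverts a gene trap that shuts Lkb1 off, and Rosa26LSL-tdTomato, a Cre-dependent red reporter. The 2 Restored mice also carried FLPo-ERT2 (labelled Rosa26LSL-tdTomato/FLPo-ERT2), a recombinase that removes the trap under tamoxifen, which was absent from the 2 Non-Restored mice. The XTR allele is carried by every cell of the animals. Which promoter drove Cre was not stated in the texts read.

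The deposited counts joined all 4 mice in 1 matrix of 20351 cells and 58624795 unique molecular identifiers (UMIs), and no file used here says which cell belongs to which mouse. Restored and Non-Restored cells were therefore not compared, cells were not assigned to mice by their order or values, and barcodes shared between libraries were not counted. The matrix counts as 1 sample without replicates. No test or p-value is given, and each interval is an exact 95% interval that covers counting error only, not the spread between mice. Mice may have given unequal numbers of each cell type, so a difference between cell types cannot be told apart from one between mice.

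LKB1 activates its substrate kinases by phosphorylating a threonine in the activation loop of the kinase domain. SIK1, SIK2 and SIK3 phosphorylate CRTC proteins and class IIa histone deacetylases, which then bind 14-3-3 proteins and stay in the cytoplasm. When protein kinase A inhibits the SIKs, or calcineurin dephosphorylates the CRTCs, these enter the nucleus and coactivate CREB. MARK2 and MARK3 phosphorylate microtubule-associated proteins and act in cell polarity. NUAK2 controls myosin phosphatase and cell adhesion, and SNRK is a more distant relative known from endothelial and cardiac metabolism.

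The activation-loop threonine is what makes these 7 kinases 1 group, so its coding sequence is shown here, 33 bases of each kinase with the threonine codon in capitals, read 5′ to 3′ on the coding strand from GENCODE vM21 transcripts (build GRCm38, the same as mm10).
Sik1: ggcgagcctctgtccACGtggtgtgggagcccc
Sik2: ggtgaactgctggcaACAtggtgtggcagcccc
Sik3: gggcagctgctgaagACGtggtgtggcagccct
Mark2: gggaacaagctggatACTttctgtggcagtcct
Mark3: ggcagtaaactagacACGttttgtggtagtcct
Nuak2: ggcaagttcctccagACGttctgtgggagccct
Snrk: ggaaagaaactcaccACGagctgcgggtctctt

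The Sik1 codon lies at chr17:31851019-31851021 on the minus strand, in exon 6 of 14, and encodes residue 182. That of Sik2 lies at chr9:50917606-50917608 (minus strand, exon 5 of 16), and that of Sik3 at chr9:46177916-46177918 (plus strand, exon 5 of 25). The MARK codons lie at chr19:7285876-7285878 for Mark2 (minus strand, exon 9 of 19) and chr12:111627166-111627168 for Mark3 (plus strand, exon 8 of 18). Those of Nuak2 and Snrk lie at chr1:132330009-132330011 (plus strand, exon 6 of 8) and chr9:122137529-122137531 (plus strand, exon 3 of 7). Within the 33 bases, Sik1 and Sik2 shared 25 and Mark2 and Mark3 shared 24. Sik3 and Nuak2 also shared 24, so likeness in this window did not follow the gene names alone. Sik2 and Snrk shared 14, the fewest of any pair.

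CRTCs act at promoters through CREB, which binds the cyclic AMP response element. Its core, TGACG, was searched on both strands in the RefSeq promoters (GRCm38.p6, 250 bases before to 50 after the start), which were given for 7 of the 10 members. Sik1, Nuak2 and Crtc2 had no entry, so their promoters were not searched. The core was in 7 of the 10 entries of these members, and in 20.8% of all 32851 promoter entries of this length. Those 7 entries belong to 5 genes, Sik2, Sik3, Snrk, Mark2 and Mark3. The entries of Snrk overlap and hold the same cores, as do those of Mark3, so the 7 are not separate promoters. The complete palindrome TGACGTCA was in none of the members' entries and in 1.79% of all. The stretches of the 3 members with more than 1 core are printed with the core in capitals on whichever strand it was found, read 5′ to 3′ in the direction of the gene. They lie at chr9:51009042-51009089 (minus strand), chr9:46012672-46012782 (plus strand) and chr9:122117237-122117279 (plus strand).
Sik2: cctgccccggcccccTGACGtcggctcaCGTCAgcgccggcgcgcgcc
Sik3: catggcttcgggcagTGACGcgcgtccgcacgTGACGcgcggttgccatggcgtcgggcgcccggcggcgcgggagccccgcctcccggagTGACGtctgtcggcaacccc
Snrk: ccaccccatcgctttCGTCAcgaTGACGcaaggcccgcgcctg

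Cell types were gated by marker genes: a cell entered the type with the largest share of its markers detected, given at least 3. Of 19488 cells that passed the filter, 17346 (89.0%) were gated, and 17 types had at least 100 cells. They were epithelium (869 cells), endothelium (1862), stroma (131), T (4195), NK (597) and B cells (2013), neutrophils (1821), alveolar (1902) and interstitial macrophages (1129), classical (490) and non-classical monocytes (237), cDC1 (130), cDC2 (187), migratory (152) and plasmacytoid dendritic cells (pDC, 117), and basophils or mast cells (177). A further 1268 cells with both C1q and Ccl17 UMIs are called C1q+ Ccl17+ cells and given no cell type name, since only 4 of the 10 interstitial macrophage markers were at least 2-fold higher in them. In each of the other 16 types every marker of its own list was at least 2-fold higher than in all other gated cells, which the gates themselves favor. All names are gates on RNA and rebuilt here. Of the cDC2 gate, 51.3% of the cells fell in 1 cluster, the lowest share but for T cells (41.8%). Surfactant RNA (Sftpc) stood at 93226 CPM (counts-per-million, the UMIs of a gene over all UMIs of the type) in the epithelium and at 27.0 to 297 CPM in the other types, which gives the scale of free or carried-over RNA.

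All 10 genes had the 20 UMIs over gated cells required for a ratio. Their UMIs in the whole matrix ranged from 243 for Crtc1 to 4344 for Crtc3, so that Crtc1 is measured with the least precision. Together they made up 258 CPM (242 to 275) in the epithelium, the lowest of the 17 types, and 638 CPM (614 to 664) in the endothelium, the highest. The epithelial interval overlapped those of stroma and of basophils or mast cells. That of the endothelium overlapped those of neutrophils and non-classical monocytes, so neither rank is resolved. Snrk alone gave 1188 of the 2525 UMIs of the members in endothelium. The spread of a gene over the types was taken as the SD of log2(CPM + 10). It exceeded that of 91.2% of 14589 genes for Nuak2, 87.4% for Snrk and 82.1% for Sik1. At the other end were Mark3 (37.4%), Crtc2 (27.0%) and Crtc1 (22.8%). The 10 CPM added holds down the spread of genes at low levels. Over all gated cells Crtc1 stood at 4.15 CPM and Crtc2 at 14.7 CPM, so their low rank does not show an even level.

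In the epithelium Sik2, Nuak2 and Crtc3 were at least 2-fold lower than in all other gated cells, and no member was 2-fold higher. Over all 14589 genes, 23.0% were at least 2-fold lower there and 16.0% at least 2-fold higher, with an interval off 1 in each case. The 3 of 10 members is thus near the background share. The log2 ratios were -2.24 (-2.93 to -1.62) for Sik2, -1.82 (-2.15 to -1.5) for Crtc3 and -1.53 (-1.92 to -1.16) for Nuak2. Those of Sik1 (-0.13), Sik3 (-0.11), Mark2 (-0.051), Mark3 (-0.0038) and Crtc1 (0.34) had intervals that included 0, and Mark2 and Mark3 changed sign under other cell filters or scalings. Snrk (-0.66, -0.92 to -0.41) and Crtc2 (-0.81, -1.37 to -0.30) were lower by less than the fold. The median over the members was -0.40, beside -0.18 over all genes.

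Across the other types the members passed the 2-fold limit in few cases and both directions. In the endothelium 1 was higher and 1 lower, beside 19.0% and 17.4% of all genes, and in stroma none was higher and 2 lower (13.9% and 10.8%). T cells had none higher and 2 lower (8.48% and 31.5%), NK cells none of either (7.21% and 14.2%) and B cells 1 higher and 2 lower (6.82% and 27.6%). Neutrophils had 2 higher and none lower (8.64% and 32.4%), and the median over the members was 0.46 there, beside -0.60 over all genes. Alveolar macrophages had 1 lower (10.5% and 28.4%), interstitial macrophages 1 lower (3.97% and 20.2%) and C1q+ Ccl17+ cells 2 lower (4.87% and 24.5%), with none higher in these 3. Classical monocytes had 1 higher (3.45% and 16.7%) and non-classical monocytes 2 higher (6.53% and 7.88%), with none lower. Among dendritic cells, cDC1 had none of either (2.81% and 11.0%), cDC2 2 lower (2.73% and 13.7%), migratory DC 1 higher and 2 lower (4.65% and 15.2%) and pDC 1 higher and 1 lower (6.64% and 9.10%). Basophils or mast cells had 1 higher and 2 lower (4.98% and 13.3%).

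**Figure D1:**
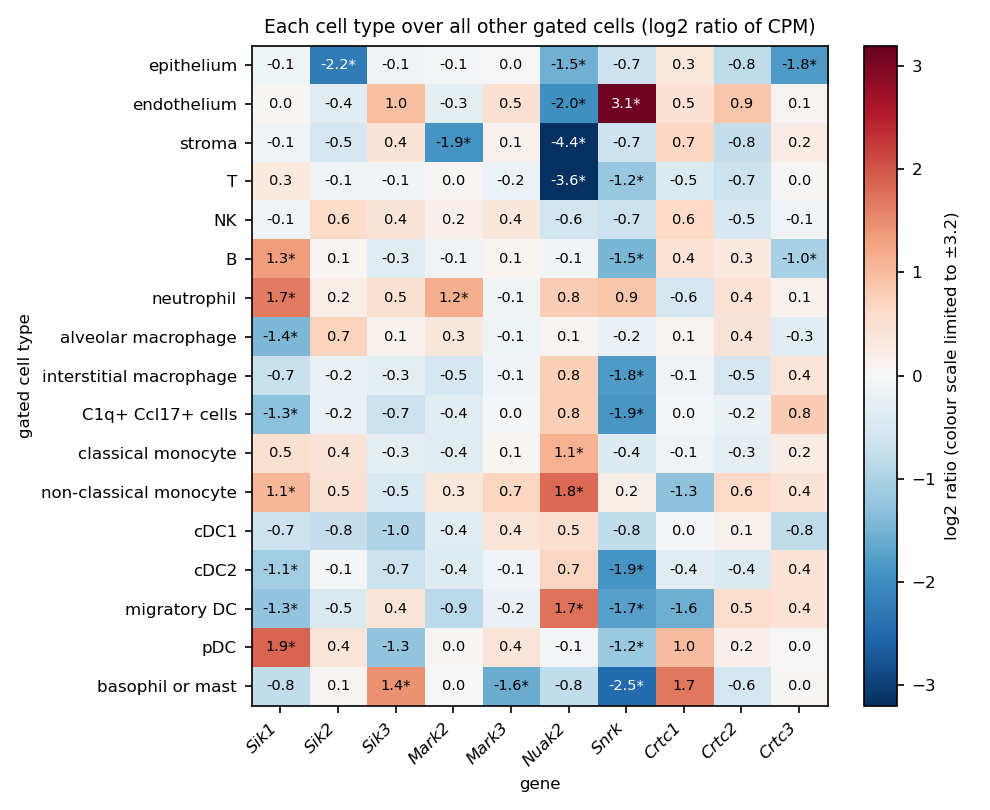
Log2 ratio of CPM of each member (columns) in each gated cell type (rows) over all other gated cells. A star marks a ratio of at least 2-fold either way whose exact 95% interval excludes 0. The value of Crtc1 in cDC2, with 0 UMIs, is an upper bound. Snrk in endothelium (3.1) and Nuak2 in stroma (-4.4) and T cells (-3.6) are the extremes.

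Among the SIKs, Sik1 varied most. It is a kinase whose own gene is induced by cyclic AMP. Its level was 142 CPM (106 to 187, 52 UMIs) in pDC, 115 CPM (102 to 129) in neutrophils, 91.3 CPM (81.3 to 102) in B cells and 82.4 CPM (60.7 to 109) in non-classical monocytes. The intervals of pDC, neutrophils and non-classical monocytes overlapped, so their order is not resolved. The lowest levels, 17.0 to 18.6 CPM, were in migratory DC, alveolar macrophages, C1q+ Ccl17+ cells and cDC2, and these intervals overlapped as well. Against all other gated cells Sik1 was higher in pDC by 1.86 (1.43 to 2.25), in neutrophils by 1.67 (1.48 to 1.85) and in B cells by 1.32 (1.14 to 1.5) on the log2 scale. At least 2-fold higher were 6.64% of all genes in pDC, 8.64% in neutrophils and 6.82% in B cells. In alveolar macrophages Sik1 was lower by a log2 ratio of -1.43 (-1.66 to -1.21), where 28.4% of genes were at least 2-fold lower. The share of cells with a Sik1 UMI, after each cell was thinned to 1000 UMIs, was 12.8% (7.36 to 20.3%) of 117 pDC and 1.34% (0.87 to 1.97%) of 1863 alveolar macrophages. Unthinned, the shares were 35.9% and 8.52%, at medians of 2799 and 5491 UMIs per cell.

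T cells were not uniform in Sik1. Gamma-delta T cells had 81.4 CPM (57.0 to 113) and regulatory T cells 65.3 CPM (51.9 to 81.2), while CD4 and CD8 T cells had 35.9 CPM (24.9 to 50.2) and 33.4 CPM (24.6 to 44.3). The intervals of the gamma-delta and regulatory cells lay above those of both other groups.

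Sik2 showed the opposite kind of pattern, an even level with 1 low type. The epithelium had 21 Sik2 UMIs in 869 cells, or 5.69 CPM (3.52 to 8.69). The 16 other types ranged from 14.9 CPM in cDC1 to 37.4 CPM in NK cells, and only the intervals of stroma and cDC1 reached down to that of the epithelium. Alveolar macrophages, at 36.3 CPM (32.8 to 40.2), had the most precise value near the top. Their log2 ratio over interstitial macrophages was 0.72 (0.40 to 1.06), and without tdTomato-positive cells it was -0.46 (-1.73 to 0.59). NK cells, the highest, had an interval that overlapped those of 14 other types.

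Sik3 was highest in basophils or mast cells, at 69.8 CPM (43.2 to 107, 21 UMIs), and next in endothelium, at 47.5 CPM (41.0 to 54.8), with overlapping intervals. Against all other gated cells the log2 ratio was 1.43 (0.73 to 2.05) in basophils or mast cells and 0.96 (0.73 to 1.19) in endothelium. The former passed the 2-fold limit, as did 4.98% of genes in that type. In the endothelium, cells led by larger-vessel markers had 14.2 CPM (3.86 to 36.3, 4 UMIs) and general capillary cells 48.8 CPM (41.7 to 56.9). Their log2 ratio was -1.79 (-3.68 to -0.40), where 2.97% of genes were at least 2-fold lower, and it rests on those 4 UMIs.

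**Figure D2:**
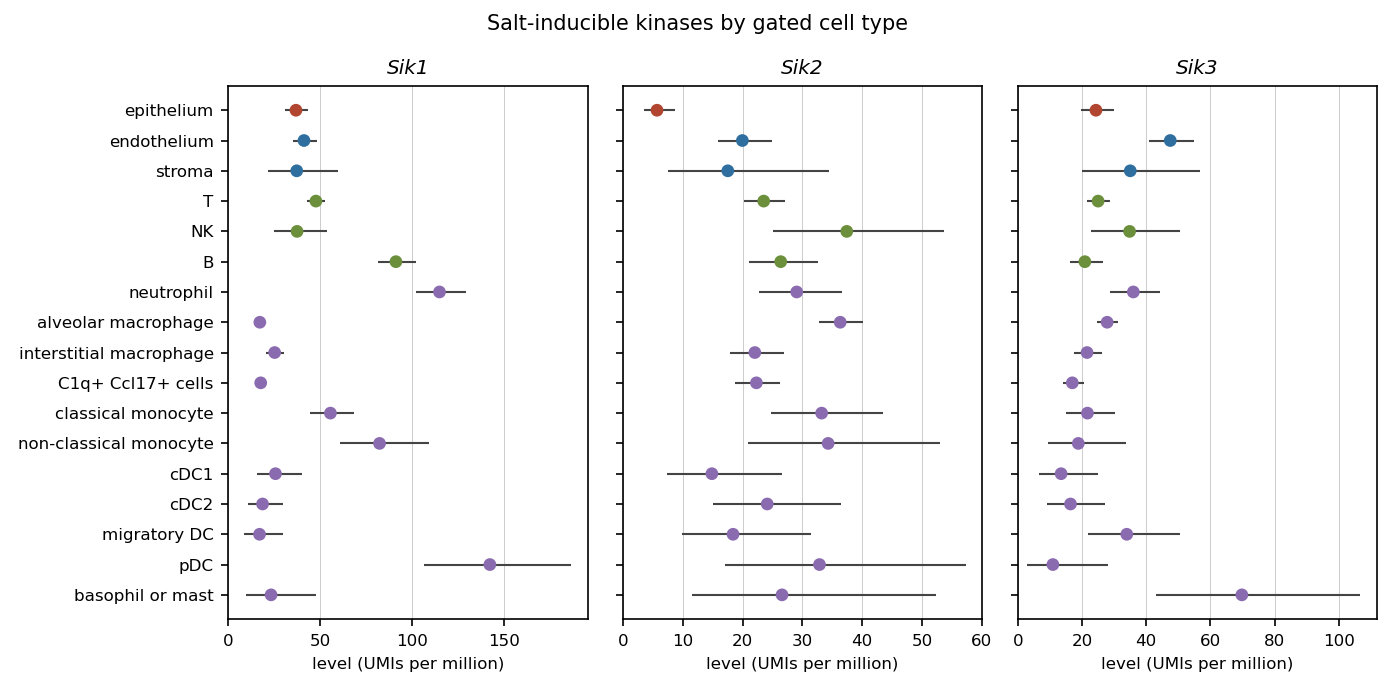
Level of Sik1, Sik2 and Sik3 in CPM (horizontal axes, each from 0) in the 17 gated cell types. Points are the summed UMIs of a type over its total and bars are exact Poisson 95% intervals, which cover counting error only. Sik1 peaks in pDC at 142, Sik2 is lowest in epithelium at 5.69, and Sik3 is highest in basophils or mast cells at 69.8. Colors set apart epithelium, other non-immune cells, lymphocytes and the remaining immune cells.

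The MARK kinases differed from each other. Mark2 had 135 CPM (121 to 151) in neutrophils, above the interval of every other type, and 17.5 CPM (7.57 to 34.5, 8 UMIs) in stroma. The other 15 types lay between 35.4 CPM in migratory DC and 80.6 CPM in non-classical monocytes. The neutrophil log2 ratio was 1.17 (1.00 to 1.33). Neutrophils had the lowest depth, a median of 913 UMIs per cell, and the median log2 ratio of all genes there was -0.60. With trimmed-mean (TMM) scaling the Mark2 ratio was 1.67, and with totals that left out mitochondrial, ribosomal protein, hemoglobin, immunoglobulin and surfactant genes it was 0.82, under the 2-fold limit. In stroma the log2 ratio was -1.88 (-3.09 to -0.90), where 10.8% of genes were at least 2-fold lower.

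Mark3, the most even of the 7 kinases by its spread over types, ranged from 13.3 CPM (3.62 to 34.1, 4 UMIs) in basophils or mast cells to 63.5 CPM (44.7 to 87.5) in non-classical monocytes. The interval of the latter overlapped those of 11 other types, epithelium included. Only basophils or mast cells passed the 2-fold limit, with a log2 ratio of -1.58 (-3.46 to -0.22), and 13.3% of genes were at least 2-fold lower in that type.

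Nuak2 divided the immune cells of the tumors. It was highest in non-classical monocytes, at 158 CPM (127 to 194), and in migratory DC, at 149 CPM (122 to 180), which did not differ beyond counting error. Classical monocytes followed with 96.5 CPM (81.7 to 113). Neutrophils, interstitial macrophages, cDC2, C1q+ Ccl17+ cells and cDC1 had 64.9 to 76.5 CPM, B cells 43.7 CPM (36.8 to 51.4) and NK cells 31.0 CPM (19.9 to 46.1). T cells had 36 Nuak2 UMIs in 4195 cells, or 4.51 CPM (3.16 to 6.24).

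The low level held in every T cell group. CD4 T cells had 3 UMIs, CD8 T cells 8, regulatory T cells 7 and gamma-delta T cells 2, which gave 3.17 to 5.64 CPM with overlapping intervals. NK cells exceeded T cells by a log2 ratio of 2.78 (1.97 to 3.57), where 8.56% of genes were at least 2-fold higher and 5.24% lower. Against all other gated cells the log2 ratio in T cells was -3.58 (-4.10 to -3.11), with 31.5% of genes at least 2-fold lower. In non-classical monocytes it was 1.82 (1.5 to 2.12), with 6.53% of genes at least 2-fold higher, in migratory DC 1.74 (1.44 to 2.02), with 4.65%, and in classical monocytes 1.12 (0.87 to 1.36), with 3.45%.

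Outside the immune cells Nuak2 was low throughout. Epithelium had 16.8 CPM (12.9 to 21.5), endothelium 12.6 CPM (9.38 to 16.7) and stroma 2.19 CPM (0.0555 to 12.2), the last from 1 UMI. Immune over non-immune cells gave a log2 ratio of 1.87 (1.60 to 2.15), with 15.8% of genes at least 2-fold higher. After thinning to 1000 UMIs, 16.5% (11.9 to 21.9%) of 231 non-classical monocytes and 0.331% (0.176 to 0.565%) of 3933 T cells had a Nuak2 UMI. The unthinned shares were 29.1% and 0.810%, at medians of 1985 and 1660 UMIs per cell. Sftpc, which immune cells do not make, was found in 9.09% and 6.59% of the same thinned cells. Whether the few Nuak2 UMIs of T cells came from free RNA was not tested.

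Snrk had the highest level of any member in any type and the sharpest peak. In endothelium it reached 300.3 CPM (283 to 318, 1188 UMIs in 1862 cells). Neutrophils were next, at 98.2 CPM (86.2 to 111), followed by non-classical monocytes, at 63.5 CPM (44.7 to 87.5), and alveolar macrophages, at 49.5 CPM (45.4 to 54.0). The lowest levels were 9.98 CPM (2.06 to 29.2, 3 UMIs) in basophils or mast cells, 15.4 CPM in cDC2 and 17.0 to 17.1 CPM in C1q+ Ccl17+ cells, migratory DC and interstitial macrophages. The endothelial interval lay above that of every other type.

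The endothelial log2 ratio of Snrk was 3.12 (3.01 to 3.23), above that of 94.3% of genes, and 19.0% of genes were at least 2-fold higher in endothelium. Of 1685 endothelial cells thinned to 1000 UMIs, 26.1% (24.0 to 28.2%) had a Snrk UMI, beside 2.59% (2.12 to 3.14%) of T cells. Unthinned, the shares were 42.9% and 4.82%, at medians of 1898 and 1660 UMIs per cell. Aerocyte-led endothelial cells, the thin capillary cells of gas exchange, had 527 CPM (443 to 623), general capillary cells 295 CPM (277 to 313) and larger-vessel cells 152 CPM (110 to 205). These 3 intervals did not overlap. Aerocytes exceeded general capillary cells by a log2 ratio of 0.84 (0.57 to 1.10), and larger-vessel cells differed from them by -0.95 (-1.43 to -0.51). Neither passed the 2-fold limit, which 5.98% of genes passed upward in the former and 2.97% downward in the latter. Sftpc stood at 2605 CPM in the aerocyte-led cells, 136 CPM in general capillary and 88.6 CPM in larger-vessel cells, and epithelial Snrk was 36.3 CPM (30.4 to 43.0).

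Snrk also separated the macrophages. Alveolar macrophages exceeded interstitial macrophages by a log2 ratio of 1.54 (1.19 to 1.91), where 16.2% of genes were at least 2-fold higher and 10.4% lower, and C1q+ Ccl17+ cells by 1.54 (1.24 to 1.85), where 17.5% were. Alveolar macrophages also held 2685 CPM of TdTomato, and without tdTomato-positive cells the Snrk ratio to interstitial macrophages was 1.66 (0.95 to 2.33). In T and B cells the log2 ratios over all other gated cells were -1.22 (-1.43 to -1.01) and -1.46 (-1.82 to -1.11), with 31.5% and 27.6% of genes at least 2-fold lower. The T cell value lost its 2-fold call when totals left out the abundant gene families. The Snrk locus, chr9:122117266-122169702, holds 3 noncoding genes on its own strand (Gm47122, 4632418H02Rik and Gm47121), with which counting could split reads.

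**Figure D3:**
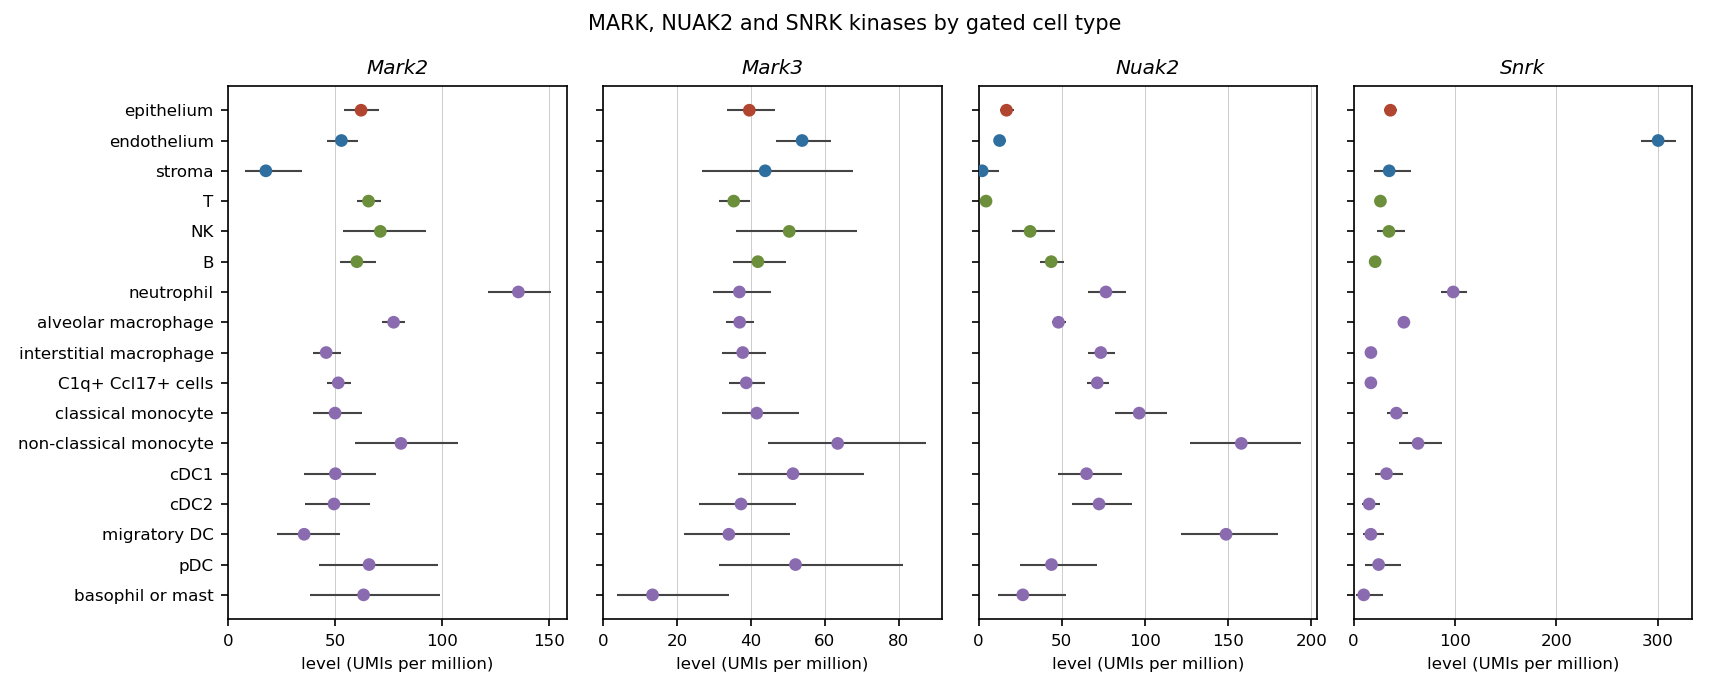
Level of Mark2, Mark3, Nuak2 and Snrk in CPM (horizontal axes, each from 0) in the 17 gated cell types, with exact Poisson 95% intervals that cover counting error only. Mark2 is highest in neutrophils at 135, Mark3 stays within 13.3 to 63.5, Nuak2 falls to 4.51 in T cells and 2.19 in stroma, and Snrk reaches 300.3 in endothelium. Colors are as in the plot of the SIKs.

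The CRTC coactivators differed in how well they were measured. Crtc3 was present in all 17 types, with 119.8 CPM (112 to 129) in C1q+ Ccl17+ cells and 94.8 to 101 CPM in non-classical monocytes, cDC2, migratory DC and interstitial macrophages. In epithelium it was 22.5 CPM (17.9 to 27.9), below the interval of each of the other 16 types. B cells had 37.6 CPM (31.3 to 44.8), with a log2 ratio over all other gated cells of -1.04 (-1.31 to -0.79). In C1q+ Ccl17+ cells the log2 ratio was 0.81 (0.70 to 0.93), short of the 2-fold limit, and it was 1.03 with TMM scaling. CD8 T cells had 53.6 CPM (42.3 to 67.0) and CD4 T cells 95.1 CPM (76.5 to 117), a log2 ratio of -0.83 (-1.29 to -0.37).

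Crtc2 was highest in endothelium, at 25.5 CPM (20.8 to 31.0), and lowest in epithelium, at 8.66 CPM (5.93 to 12.2), a factor of 2.95 between them. Neither rank is resolved. The endothelial interval overlapped those of 9 other types, and the epithelial one those of stroma, T cells and NK cells, among others. The endothelial log2 ratio of Crtc2 was 0.89 (0.57 to 1.19). Crtc1 had 205 UMIs over all gated cells, and the intervals of all 17 types overlapped. Its highest value, 13.3 CPM in basophils or mast cells, came from 4 UMIs. Crtc1 had 0 UMIs in 187 cDC2, with an interval of 0 to 4.05 CPM. None of its ratios over all other gated cells passed the 2-fold limit. That of basophils or mast cells, 1.70 (-0.19 to 3.08), was 2.07 (0.18 to 3.45) with TMM scaling and 2.15 (0.25 to 3.55) without tdTomato-positive cells outside the epithelium, past the limit in both.

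Summed over the 3 genes, CRTC UMIs came to 36.3 CPM in epithelium and 60.9 to 137 CPM in the 16 other types. The 3 SIK genes came to 66.9 CPM in epithelium, within the range of 54.1 CPM in cDC1 to 186 CPM in pDC.

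**Figure D4:**
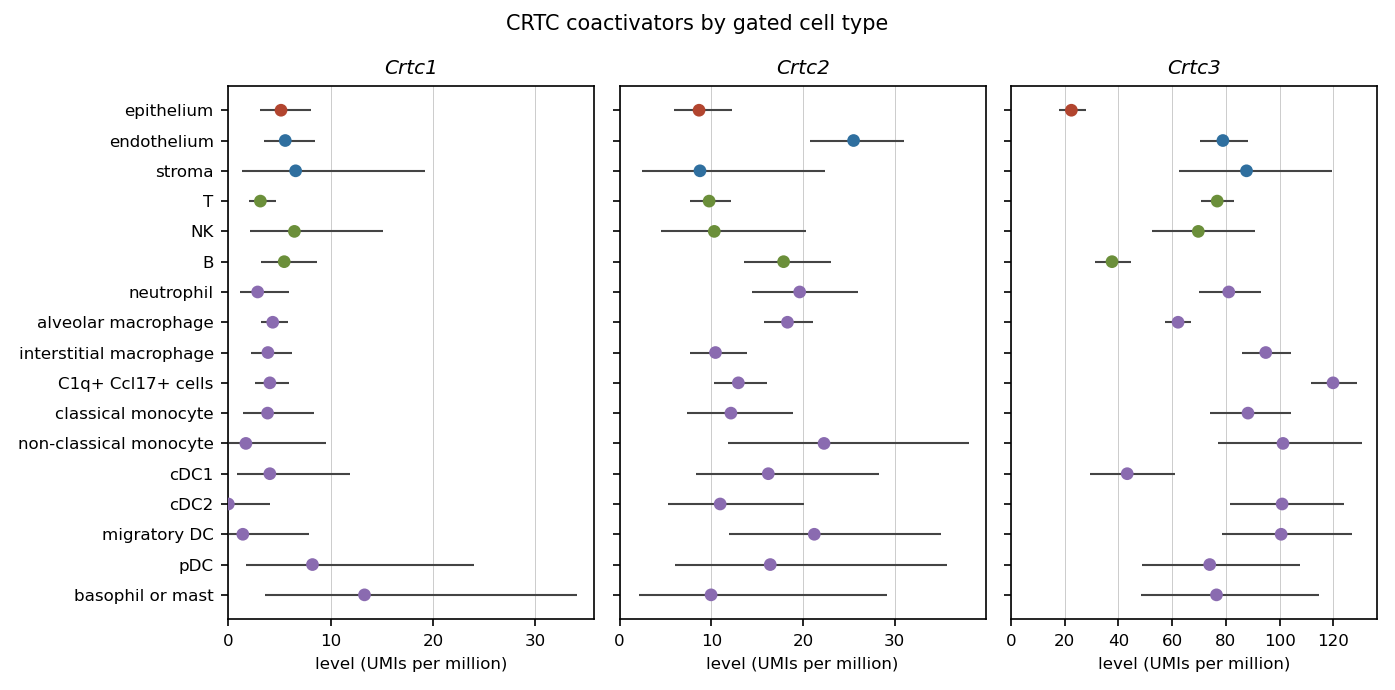
Level of Crtc1, Crtc2 and Crtc3 in CPM (horizontal axes, each from 0) in the 17 gated cell types, with exact Poisson 95% intervals that cover counting error only. The Crtc3 value of the epithelium, 22.5, lies below all others, Crtc2 ranges from 8.66 to 25.5, and the Crtc1 intervals all overlap. Colors are as in the plot of the SIKs.

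Between closely related cells few members passed the 2-fold limit. None of the 8 members with enough UMIs did between alveolar type I-led and type II-led epithelial cells, where 9.98% of genes were higher and 5.78% lower, nor did any of 8 between CD8 and CD4 T cells (2.90% and 5.60%). None of 9 did between non-classical and classical monocytes (10.5% and 3.26%). Here the largest ratio was that of Crtc2, 0.88 (-0.26 to 1.97), from 13 and 19 UMIs. Nuak2 (0.71, 0.32 to 1.09), Mark2 (0.69, 0.14 to 1.23) and Sik1 (0.57, 0.03 to 1.09) had intervals above 0, and the median over the members was 0.59, beside 0.23 over all genes. Immune cells exceeded non-immune cells by a log2 ratio of 1.05 (0.76 to 1.34) in Sik2. They were lower in Snrk, at -2.26 (-2.37 to -2.15), where 25.6% of genes were lower. Endothelium held 1188 of the 1340 non-immune Snrk UMIs. Epithelium (36.3 CPM) and stroma (35.1 CPM) were near immune cells (34.3 CPM) in Snrk, so its ratio does not describe non-immune cells in general. Sik2 was 5.69 CPM in epithelium, 19.97 CPM in endothelium and 17.5 CPM in stroma, beside 27.6 CPM in immune cells. The Sik2 ratio was 0.89 without tdTomato-positive cells outside the epithelium and 0.66 as a mean of CPM per cell, both under the limit.

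The rest of the pathway was followed through 9 lists of related genes in epithelium, endothelium and neutrophils. Over all genes, 16.0% were at least 2-fold higher and 23.0% lower in epithelium, 19.0% and 17.4% in endothelium and 8.64% and 32.4% in neutrophils, and nothing is read from counts in such short lists. Totals without abundant gene families moved the median log2 ratio of all genes by -0.35 in neutrophils and 0.11 in epithelium. TMM scaling moved it by 0.51 in neutrophils. Calls of list genes this near the limit depend on the scaling, and list genes were not recomputed under it. Of the 5 members of the LKB1 complex, Cab39l, an MO25 scaffold, was higher in epithelium, at a log2 ratio of 1.04 (0.79 to 1.28), and lower in neutrophils (-1.82, -2.63 to -1.11). Stk11, which encodes LKB1, was higher in neutrophils (1.36, 1.08 to 1.64). Of 6 measured AMPK subunits, 1 was higher and 2 were lower in epithelium, the catalytic Prkaa2 (3.25, 2.59 to 3.90), and the other catalytic subunit Prkaa1 (-1.09, -1.70 to -0.54) with the regulatory Prkab2 (-1.54, -2.51 to -0.72). In endothelium 2 were higher, Prkaa2 (3.69, 3.04 to 4.34) and Prkab1 (1.48, 1.22 to 1.74), and in neutrophils 1, Prkab1 (1.12, 0.77 to 1.46). Of the 3 other LKB1-activated kinases with enough UMIs, none passed the 2-fold limit in epithelium or neutrophils. Mark1 met the UMI minimum through stroma and had no UMI in either type. A count of 0 entered as 3 UMIs, so the missing call of Mark1 there is not a measurement. Mark4 (2.18, 1.91 to 2.44) and Nuak1 (1.73, 1.01 to 2.40) were higher in endothelium, and Mark1 was found at 83.3 CPM in stroma and at 0.227 CPM or less in the other 16 types.

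Among the SIK and CRTC partners, 2 of 4 class IIa deacetylases were lower in epithelium, where 23.0% of all genes were, namely Hdac4 (-1.34, -1.77 to -0.93) and Hdac9 (-1.88, -3.77 to -0.50). In endothelium, where 19.0% of all genes were higher, 2 of 4 were, Hdac7 (3.21, 3.05 to 3.38) and Hdac9 (2.19, 1.71 to 2.66). In neutrophils Hdac4 was higher, by 2.75 (2.59 to 2.91), and Hdac7 (-1.05) and Hdac9 (-3.27) were lower. Of 5 CREB-family partners 1 was lower in epithelium, the cyclic AMP-responsive factor Crem (-1.09, -1.37 to -0.82). In neutrophils the acetyltransferases Crebbp (1.05, 0.90 to 1.20) and Ep300 (1.28, 1.12 to 1.44) were higher. Both stood closer to the limit than the neutrophil shift of -0.35 with totals without abundant gene families. Hdac7 stood closer to it than the shift of 0.51 with TMM. Of the 6 subunits of protein kinase A, 2 were lower in epithelium (Prkar1b and Prkar2b), 1 in endothelium (Prkar2b) and 3 in neutrophils (Prkaca, Prkacb and Prkar2a), beside 23.0%, 17.4% and 32.4% of all genes, and none was higher. The calcineurin and 14-3-3 genes gave 1 of 10 higher in epithelium, Sfn (6.18, 5.71 to 6.67), and 1 lower, Ywhah (-1.41, -1.57 to -1.26). Sfn was also the 1 gene of this list lower in endothelium, and 4 were lower in neutrophils, Ppp3cb, Ywhae, Ywhaq and Sfn.

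The 10 genes known to respond to CREB and CRTCs all differed by at least 2-fold in epithelium, 3 higher and 7 lower, beside 16.0% and 23.0% of all genes. Their median log2 ratio was -1.60, beside -0.18 over all genes. Areg, an EGF-receptor ligand, was higher by 4.04 (3.96 to 4.13), Ppargc1a, a coactivator of mitochondrial genes, by 4.53 (3.94 to 5.14) and Pde4d, a cyclic AMP phosphodiesterase, by 1.52 (1.29 to 1.74). The nuclear receptors Nr4a1 (-1.46), Nr4a2 (-1.74) and Nr4a3 (-2.74), and Pde4b (-2.73), Per1 (-1.43), Rgs2 (-4.26) and Ptgs2 (-2.07) were lower. In neutrophils 5 of the 10 were higher, Nr4a1, Pde4b, Per1, Rgs2 and Ptgs2, and 2 were lower, Pde4d and Areg (8.64% and 32.4% of all genes). In endothelium 1 was higher, Pde4b (1.47, 1.39 to 1.54), and 5 were lower, Nr4a3, Per1, Rgs2, Areg and Ptgs2 (19.0% and 17.4%). Each of these 3 types had genes of the list in both directions.

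Sik1 is itself an early-response gene, so it was set beside the immediate-early and heat-shock list of 14 genes, which enzymatic dissociation of tissue is known to raise. Of these 14 genes, 2 were higher (Hspa1a and Hspa1b) and 4 lower (Junb, Ier3, Zfp36 and Btg2) in epithelium, near the 16.0% and 23.0% of all genes. In endothelium 5 were higher (Jun, Ier2, Ier3, Hspa1a and Hspa1b), beside 19.0%, and in neutrophils 3 (Zfp36, Dusp1 and Btg2), beside 8.64%. The summed level of the list ranged from 3594 CPM in pDC to 26720 CPM in basophils or mast cells. pDC, among the types with the most Sik1, had the lowest level of the list. Neutrophils, whose Sik1 level was not resolved from that of pDC, had 17015 CPM of the list. Over the 17 types the Pearson correlation of log2 levels with the list was -0.19 for Sik1 and 0.59 for Sik3, the largest among the members. These are descriptions over types of 1 matrix that share depth and origin.

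Within types the picture differed. Each type was divided at its median share of UMIs from the list, and Sik1 was higher in the cells above it in 13 of 17 types, with an interval above 0 in 4 of them and below 0 in none. The direction alone was shared by Mark2, higher in 15 types, and by Nuak2 and Snrk, each higher in 13. The share of all genes with such intervals was not computed for this split, so the counts do not set Sik1 apart from genes at large. In T cells Sik1 stood at 58.6 CPM above and 38.0 CPM below the median share, a log2 ratio of 0.63 (0.33 to 0.93). The ratio was 0.81 (0.33 to 1.30) in endothelium, 0.84 (0.39 to 1.30) in alveolar macrophages and 0.75 (0.40 to 1.10) in neutrophils. B cells had 91.1 CPM above and 91.5 CPM below, a log2 ratio of -0.01 (-0.34 to 0.33). Median depth was 1596 and 1726 UMIs per cell in the T cells compared, and 831 and 1033 in the neutrophils. Among the other members Nuak2 had an interval above 0 in 2 types and below in 1, Snrk above in 1 and below in none, Mark2 above in none and below in 1, and Crtc3 above in 1 and below in 4. The part of dissociation in these values was not tested.

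**Figure D5:**
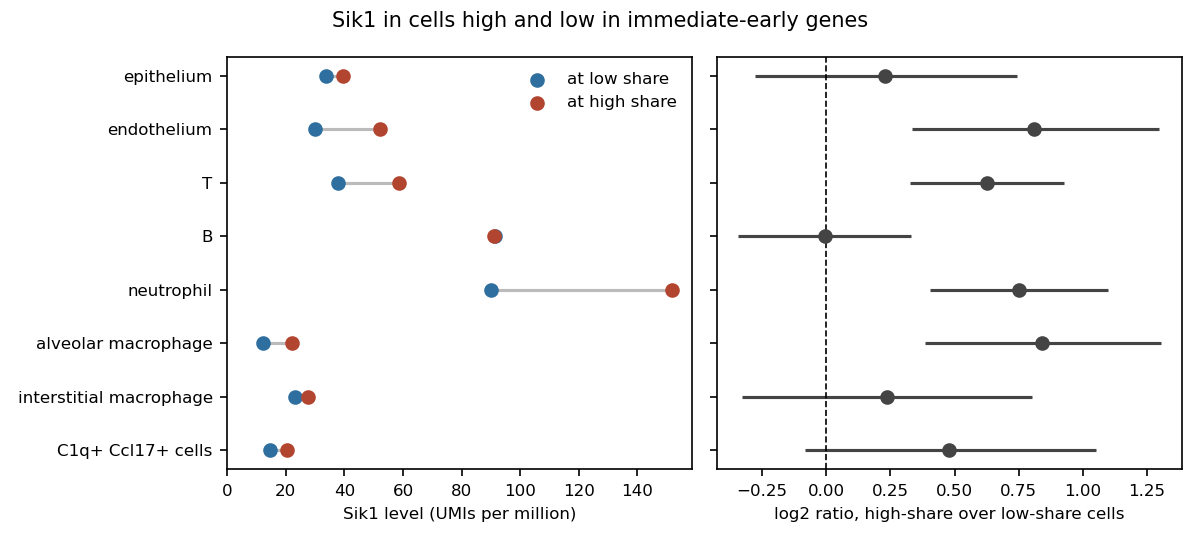
Left, Sik1 level in CPM in cells with a share of immediate-early UMIs at or above (red) and below (blue) the median of their type, for the 8 types with at least 100 Sik1 UMIs. Right, the log2 ratio with its exact 95% interval for counting error. The intervals of endothelium, T cells, neutrophils and alveolar macrophages lie above 0, and B cells sit at -0.01.

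For each member the 3 genes with the most similar profile over the 17 types were taken among 7969 other genes with at least 500 UMIs, by Pearson correlation of log2(CPM + 10). Nuak2 ran most closely with Irf5 (0.90), Nckap1l (0.88) and Prkcd (0.87), and Snrk with Smurf2 (0.91), the melanoma cell adhesion molecule Mcam (0.89) and Mark4 (0.88). For Sik1 they were Luc7l2 (0.87), Ogt (0.87) and Zfp740 (0.86), for Sik2 Cklf, Apbb1ip and Mnt (0.82 to 0.83) and for Sik3 Ppp1r15a, Zfp787 and Pnrc1 (0.79 to 0.80). Those of Mark2 were Usp7, Pithd1 and Kif23 (0.84 to 0.87) and those of Mark3 Nosip, Pcnx3 and Hdgfl2 (0.89 to 0.91). Crtc1 gave Fbxo9, Nt5c3 and Tshz1 (0.81 to 0.86), but the minimum of 500 UMIs was not asked of the members. With 205 UMIs and intervals that overlapped in all 17 types, the Crtc1 profile is not resolved from counting error. Crtc2 ran with Smarcd2, Zc3h7a and Eps15 (0.76 to 0.81) and Crtc3 with S100a4, Trps1 and Crlf2 (0.74 to 0.76). Among the members themselves the highest correlation was 0.58, between Snrk and Crtc2, and the lowest was -0.56, between Sik3 and Mark3. The SIKs and CRTCs did not form a shared profile, with 0.50 between Sik2 and Crtc3 as their highest value. For Crtc1 the counts are too few to tell. All these correlations are over types of 1 matrix and carry no test.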

How the data were processed

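Droplet-based 3′ single-cell RNA-seq libraries of lung tumor cells were made by the authors, and the deposited values are UMI counts per gene and cell, from reads placed on mm10 plus 2 reporter features, GFP and TdTomato (Cell Ranger 3.0.2, per the file header). Libraries of all mice were joined by the authors in 1 matrix. Whether depth was equalised in joining was not stated. The files held no other samples' columns.

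Cells with at least 200 genes, at most the 98th percentile of genes (2713) and at most the 98th percentile of mitochondrial share (13.4%) were kept. They had a median of 1950 UMIs, and the medians of the 17 types ran from 913 to 5576. Markers were fixed before the files were read, while the scoring of the gates and the class of C1q+ Ccl17+ cells were set after cells had been seen. Doublets were kept. With an expected rate of 6%, Scrublet in scanpy 1.11.5 marked 181 cells (0.892% of 20299) as doublets on the pooled libraries, which were left out in 1 alternative.

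UMIs were summed per type and divided by the total of the type (CPM), with exact Poisson intervals. Ratios of 2 sums carry exact conditional intervals and shares exact Clopper-Pearson ones. A gene was called at a ratio of at least 2-fold either way with an interval off 1, among genes with at least 20 UMIs, and a count of 0 entered as 3 UMIs, per type. All intervals cover counting error only. Ratios were also run on simulated Poisson counts without spread between cells or mice, which checks the calculation and not the fit of the intervals to these data.

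The members and the pathway lists were chosen with earlier results of these data known. Named genes are all members, genes of the 9 lists past the 2-fold limit in a comparison described, and the 3 genes most like each member. The comparisons among endothelial cells and with C1q+ Ccl17+ cells were added after levels had been seen. Alternatives were other cell filters, gates with 1 more marker, clusters named from the same markers (Leiden, 25 dimensions, resolution 1), removal of doublets or of tdTomato-positive cells outside the epithelium, TMM scaling (edgeR on the deposited counts), totals without abundant gene families, means of CPM per cell, a 1.5-fold limit and no UMI minimum. A further allele that all the mice carried is not reported here.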

Additional observations from a re-analysis of the deposited data

How the results depend on the processing

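The ratio of each member in its highest type, and in epithelium, kept its sign in all but 8 of 217 values under the alternatives, and those 8 were all Mark2 or Mark3 in epithelium, with intervals that included 0. The highest type was picked on these same counts, so a positive sign there was set by the choice and is no check. A 2-fold call began or ended in 6 of the 217. Crtc1 in basophils or mast cells, from few UMIs, passed the limit with TMM scaling (2.07) and without tdTomato-positive cells outside the epithelium (2.15), and Crtc2 in endothelium passed it without the latter (1.04). For Mark2 in neutrophils the log2 ratio was 1.34 without tdTomato-positive cells outside the epithelium, 1.67 with TMM scaling and 0.82 with totals that left out abundant gene families. Snrk in endothelium had 3.34 without those tdTomato-positive cells and 2.83 with TMM, and Crtc3 in C1q+ Ccl17+ cells had 1.03 with TMM. As a mean of CPM per cell, Nuak2 in non-classical monocytes had 2.13, and Sik1 and Snrk in epithelium had -0.45 and -1.01. TMM moved the median of all genes by 0.51 in neutrophils and -0.29 in endothelium.

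With a 1.5-fold limit more members and more of all genes were called. The members called either way went from 3 to 5 in epithelium (51.8% of all genes at 1.5-fold), from 2 to 4 in endothelium (49.6%) and in neutrophils (53.5%), from 1 to 2 in alveolar macrophages (52.8%), from 1 to 3 in interstitial macrophages (36.3%) and from 2 to 5 in C1q+ Ccl17+ cells (42.1%). Between related cells they went from 0 to 1 for type I-led over type II-led epithelium (22.4%) and for CD8 over CD4 T cells (14.5%), from 1 to 2 for NK over T cells (23.7%), from 1 to 6 for alveolar over interstitial macrophages (42.2%) and from 0 to 2 between the monocytes (1805 of 7211 genes). Neutrophils gave 4 with TMM (32.7% of all genes) or CPM per cell (52.3%) and 1 with totals without abundant families (49.5%), with which T cells also gave 1 (38.9%). Endothelium gave 4 without tdTomato-positive cells outside the epithelium (36.6%). Interstitial macrophages gave 2 with CPM per cell (28.0%), and type I-led over type II-led epithelium gave 1 with no upper cut-offs (Crtc1, 16.2%). Divided into upper and lower tertiles of the immediate-early share, Sik1 had a log2 ratio of 1.11 in neutrophils and 0.35 in B cells, the latter with an interval of -0.06 to 0.77. The cause of these differences was not tested.

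Clusters named from the markers gave no non-classical monocyte, cDC1 or cDC2 class, so no value stands for these there. Leaving the C1q+ cells as the lists gave them, an alternative chosen after seeing the data, changed no call. Without tdTomato-positive cells, Sik2 in alveolar over interstitial macrophages went from 0.72 to -0.46, with an interval of -1.73 to 0.59. No paired analysis was possible because the columns carry no mouse. Depth limits Crtc1 most, followed by all members in types with few cells.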
